A study of Homo sapiens with 2 samples.

Results

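ENC 3 is the subcluster of enteric neural crest cells that the cell table of the day 10 library names ENC 3, and its members are all 348 day 10 cells whose cell type is ENC and whose subtype is ENC 3. They make up 7.46% of the 4665 day 10 crest cells placed in a subcluster (exact Clopper-Pearson 95% interval 6.72 to 8.25) and 4.77% of the 7295 day 10 cells that passed the quality filters. The day 10 table holds 9627 cells in all, and both libraries together 15947. The other subclusters are ENC 1 with 3001 cells, ENC 2 with 1129 cells and ENC 4 with 187 cells. The study derived enteric neural crest from the human embryonic stem cell line H9 and sequenced an adherent culture on Geltrex at day 10 and floating crestospheres at day 15, each as 1 Chromium 3′ library that pooled 2 biological repeats. Both stages had received BMP4, SB431542 and CHIR 99021 at the start and retinoic acid from the middle of the induction, and no other genotype is among these samples. The crestospheres were then kept in a medium with FGF2 and CHIR 99021 until day 15. All subclusters described here come from the 1 day 10 library, so no value has a replicate, no test was possible, and every difference is a description of these cells. The subclusters had also been made from the same genes in the same cells.

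Neural crest cells leave the border of the neural plate, migrate widely and keep dividing as they go, and those that colonise the gut become the neurons and glia of the enteric nervous system. SOX10 is the transcription factor that marks them along this route. A dividing cell copies its DNA in S phase with the help of origin licensing factors, the MCM helicase and new histones, and then enters G2 and mitosis under the kinase CDK1 and its cyclins. Mitosis ends when the anaphase-promoting complex, bound to its activator CDC20, marks securin (PTTG1) and the B-type cyclins for destruction.

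ENC 3 carried the crest label on its marker. SOX10 stood at 128 counts per 1000000 summed UMIs (CPM, 95% exact Poisson interval 113 to 143) in ENC 3, against 126 in ENC 1, 127 in ENC 2 and 104 in ENC 4. Neuro-epithelial progenitors (NEP) of the same library had 12.6 CPM. After every cell was thinned to 3000 UMIs, 29.9% of ENC 3 cells held a SOX10 UMI (25.1 to 35.0), beside 31.1%, 32.4% and 24.1% of ENC 1, ENC 2 and ENC 4 cells and 2.39% of NEP cells (1.74 to 3.21). Intervals here cover counting error only. Without thinning the share was 53.4% in ENC 3 at a median of 6259 UMIs and 6.79% in NEP at a median of 7227. The SOX10 level of ENC 1 and of ENC 2 lay within the counting interval of ENC 3, and the share in NEP cells, which should lack it, lay far below. Markers of the other day 10 classes were low: the NEP genes WNT2B and PAX6 had 12.02 and 11.1 CPM in ENC 3 against 827 and 572 in NEP, the placode gene EYA2 had 1 UMI, and the epithelial genes EPCAM and CDH1 had 7 and 1 UMIs.

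Most crest factors and receptors were close to the other subclusters. TFAP2B, which acts with TFAP2A in crest specification, stood at 475 CPM in ENC 3 and 444 CPM in the pooled ENC 1, ENC 2 and ENC 4 cells. The receptors NGFR, ERBB3 and EDNRB lay between 32.5 and 94.8 CPM in ENC 3 and between 38.4 and 111 in the pool. FOXD3, an early crest factor, lay above the pool, with 28.5 CPM in ENC 3 (21.9 to 36.4) against 19.7, 17.3 and 6.52 in ENC 1, ENC 2 and ENC 4. TFAP2A lay below it, at 23.6 CPM (17.7 to 30.9) against 38.1 in the pool. Neither reached a 2-fold difference from the pool, where FOXD3 stood at 18.5 CPM, but FOXD3 did over ENC 4. RET, a receptor of committed enteric progenitors, had no UMI in ENC 3, where 3 counts would be 1.34 CPM, and TWIST1 and PDGFRA had none either.

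ENC 3 cells were slightly shallower than the others and more alike in depth. They held 2246788 UMIs, with a median of 6259 per cell and quartiles of 5724 and 6850, which is a narrower spread than the quartiles of ENC 1 (6182 and 8833), ENC 2 (5109 and 8314) or ENC 4 (6028 and 8274). A median of 1796 genes and 3.37% mitochondrial UMIs per cell lay beside 1832 to 1940 genes and 3.48% to 3.58% in the others. The 2 libraries share 102 cell barcodes, 4 of them in ENC 3. No doublet caller was run, and the deepest ENC 3 cell had 13406 UMIs, below the deepest cell of each other subcluster.

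Across the transcriptome ENC 3 differed little from its neighbours. A gene was compared when it reached 20 CPM in ENC 3 or in the pool with a UMI in at least 10% of the cells of that group, and the ratio was taken as log2 of (CPM + 1), which understates differences of low genes. Of 4429 compared genes, 26 (0.587%) were at least 2-fold higher in ENC 3 than in the pool and 72 (1.63%) at least 2-fold lower, and the median log2 ratio was 0.05. All 26 higher genes were higher than in each of the 3 other subclusters, 18 of them by at least 2-fold, and 70 of the 72 lower genes were lower than in each, 31 by at least 2-fold. The exceptions, named after their values were seen, were C1orf56, with 15.1 CPM in ENC 3 and 13.8 in ENC 4, and ARID1B, a chromatin remodeller, with 8.90 and 8.69 CPM. In the plot of ENC 3 against the pool, crest factors other than SOX5 stay within 2-fold, with log2 ratios of up to 0.75. Cell cycle genes pass that limit on both sides.

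**Figure D1:**
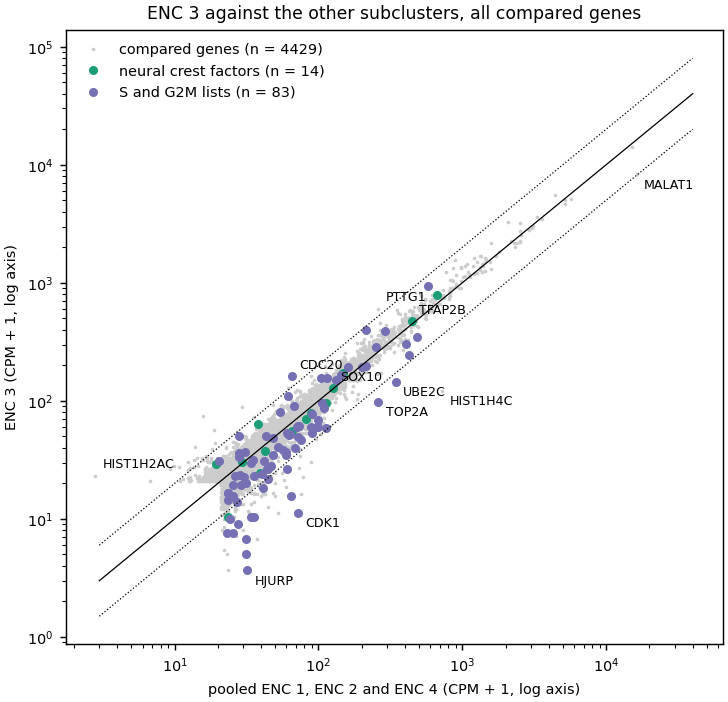
Each point is 1 of 4429 compared genes, with its CPM + 1 in the pooled ENC 1, ENC 2 and ENC 4 cells on the x axis and in ENC 3 on the y axis, both on log axes; the solid line is equality and the dotted lines are 2-fold. Neural crest factors (green) other than SOX5 stay within the dotted lines, and members of the S and G2M lists (purple) run from CDC20 above the upper dotted line to HJURP and CDK1 far below the lower one.

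CDC20 and PTTG1, which act at the end of mitosis, were at least 2-fold higher in ENC 3, and other mitotic genes lay on both sides of the pool. Among the higher genes, CDC20 stood at 162 CPM in ENC 3 (146 to 179.5) against 64.98 in ENC 1, 65.2 in ENC 2 and 47.8 in ENC 4. PTTG1, the securin that holds separase inactive until anaphase, stood at 603 CPM (571 to 636) against 258, 272 and 201. Both lay outside the range of the other subclusters by more than counting error, and their log2 ratios over the pool were 1.32 and 1.21. PTTG1 has near-identical gene copies among which reads could have been split, so its level is less certain. Below the 2-fold limit lay BIRC5 (survivin, of the chromosomal passenger complex) with 399.7 against 212 CPM, DLGAP5 (a spindle protein) with 109 against 60.3, and the checkpoint kinase BUB1 with 48.96 against 27.1. The chromatin protein HMGB2 had 939 CPM in ENC 3 and 573 in the pool.

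Several other mitotic genes were scarce. CDK1, the kinase that drives entry into mitosis, stood at 10.2 CPM in ENC 3 (6.49 to 15.4) against 75.1, 64.6 and 50.7 in ENC 1, ENC 2 and ENC 4. HJURP, which loads the centromeric histone CENP-A, had 6 UMIs in the whole of ENC 3, or 2.67 CPM (0.98 to 5.81), against 31.01, 32.7 and 23.9. No interval of ENC 3 reached the values of the others for either gene. AURKA, the spindle pole kinase, had 14.7 against 63.5 CPM, KIF23, a kinesin of the midzone, 5.79 against 30.4, and FBXO5, an inhibitor of the anaphase-promoting complex, 10.2 against 51.03. Shugoshin (SGOL1), which guards sister chromatid cohesion, had 11.6 against 43.97. The topoisomerase TOP2A and the ubiquitin carrier UBE2C, at higher levels, were -1.41 and -1.26 on the log2 scale.

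Genes of the anaphase-promoting complex and spindle checkpoint lay on both sides of the pool. In a list of 26 genes of the anaphase-promoting complex and spindle checkpoint, which was written after the values were seen, 21 were compared, with CDC20 and PTTG1 at least 2-fold higher, FBXO5 and UBE2C at least 2-fold lower and a median log2 ratio of 0.10. Of all compared genes 0.587% were higher and 1.63% lower by that limit, and 12 of the 21 had ratios above 0. This and the other cell cycle lists written after the values were seen are not complete. Of 12 compared genes in a list of cyclins, cyclin-dependent kinases and partners, CDK1 passed 2-fold, and CCNF (cyclin F), which that list leaves out, had 10.7 against 25.1 CPM. CCNB1 and CCNB2, the cyclins that CDK1 binds, stood at 148 and 157 CPM in ENC 3 against 102 and 103 in the pool. Of 7 mitotic kinases and passenger complex members compared, AURKA was lower and none was higher past the limit. Of 25 kinetochore and centromere genes compared, HJURP, SGOL1 and DSN1 were at least 2-fold lower and none at least 2-fold higher, 19 had ratios below 0 and 6 above, and the median was -0.53. CENPF, a large kinetochore protein, was among the 6, with 388 against 291 CPM.

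**Figure D2:**
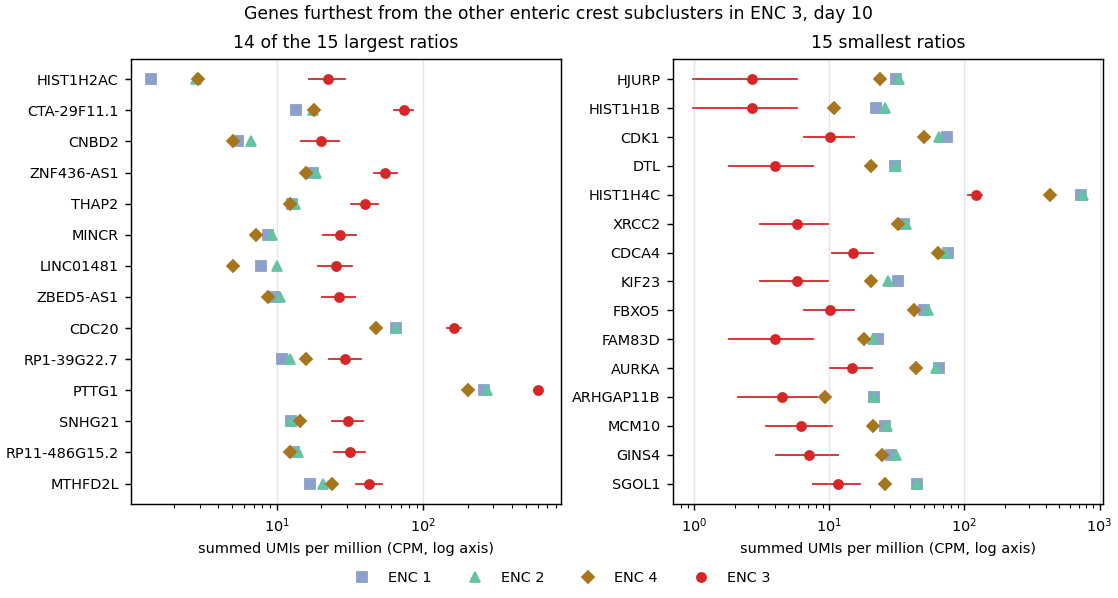
Summed UMIs scaled to counts per 1000000 (CPM, log axis) of the 15 compared genes with the largest and the 15 with the smallest log2 ratio of ENC 3 over the pooled ENC 1, ENC 2 and ENC 4 cells, with 1 marker for each subcluster and a bar for the exact Poisson 95% interval of ENC 3. The ENC 3 value lies to the right of the 3 others for all 14 genes on the left panel, where 1 of the 15 is not shown, and to their left for all 15 on the right panel.

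Promoters of 3 mitotic genes and 1 histone gene are printed here because their genes lie at opposite ends of the comparison. Genes of G2 and mitosis often carry the cell cycle homology region, a TTTGAA element, close to the start. The windows run from 250 bases before to 50 bases after an annotated RefSeq start on GRCh38.p14, and they are not measurements of this study. Capitals mark TTTGAA, or TTCAAA where it is read on the other strand, for CDC20 (chr1:43358731-43359030, plus strand), CDK1 (chr10:60778228-60778527, plus strand, the later of 2 listed starts) and HJURP (chr2:233854486-233854785, minus strand), and TATAAA for HIST1H2AC (chr6:26123922-26124221, plus strand, listed as H2AC6).
CDC20: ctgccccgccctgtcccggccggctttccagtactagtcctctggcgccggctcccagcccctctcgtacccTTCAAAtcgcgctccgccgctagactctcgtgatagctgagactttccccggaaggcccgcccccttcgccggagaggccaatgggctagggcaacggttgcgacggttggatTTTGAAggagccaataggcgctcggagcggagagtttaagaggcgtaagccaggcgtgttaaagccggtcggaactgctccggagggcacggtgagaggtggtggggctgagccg
CDK1: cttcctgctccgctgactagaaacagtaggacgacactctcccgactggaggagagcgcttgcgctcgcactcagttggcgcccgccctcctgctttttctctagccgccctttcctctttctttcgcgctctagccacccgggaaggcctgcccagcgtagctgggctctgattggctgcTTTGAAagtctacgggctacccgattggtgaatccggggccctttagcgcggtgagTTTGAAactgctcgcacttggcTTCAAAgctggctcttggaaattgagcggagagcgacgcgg
HJURP: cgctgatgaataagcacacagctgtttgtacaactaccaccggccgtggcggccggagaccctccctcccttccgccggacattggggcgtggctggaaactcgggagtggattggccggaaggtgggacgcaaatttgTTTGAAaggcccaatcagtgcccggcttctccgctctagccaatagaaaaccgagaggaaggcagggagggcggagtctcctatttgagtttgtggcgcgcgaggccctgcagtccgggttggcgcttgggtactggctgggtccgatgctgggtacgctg
HIST1H2AC: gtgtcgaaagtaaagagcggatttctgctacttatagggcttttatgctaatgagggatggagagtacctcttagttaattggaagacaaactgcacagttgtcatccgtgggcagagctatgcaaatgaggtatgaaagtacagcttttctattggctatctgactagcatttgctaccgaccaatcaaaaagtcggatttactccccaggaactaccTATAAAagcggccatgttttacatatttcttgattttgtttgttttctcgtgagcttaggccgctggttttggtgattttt
CDC20, higher in ENC 3, holds 2 matches, and CDK1 and HJURP, lower in ENC 3, hold 3 and 1. TTTGAA was searched on both strands, and no marked match overlaps another in the printed windows. It is in 15.2% of all 35116 promoter windows, in at least 1 window of 18.2% of 27305 genes and of 33 of the 45 G2M list genes matched to a window. The 3 printed mitotic genes all hold a match and were picked from both sides of the comparison, so they do not describe the other genes. Only 18 of the 26 higher genes and 56 of the 72 lower genes matched a window, fewer than 80%, and a share over those sets is void. TATAAA, searched the same way, is in 11.5% of all windows. A match is a run of letters and not a site shown to be bound.

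Genes of DNA replication lay almost wholly on the low side. DTL, the substrate receptor that marks the licensing factor CDT1 for destruction, stood at 4.01 CPM in ENC 3 (1.83 to 7.604) against 30.5, 31.2 and 20.3 in ENC 1, ENC 2 and ENC 4. ORC6, a subunit of the origin recognition complex, stood at 21.8 CPM (16.1 to 28.8) against 76.3, 79.3 and 76.01. In both the ENC 3 value lay below all the others. Of 31 compared genes in a list of origin licensing and replication, written after the values were seen, 8 were at least 2-fold lower, beside 1.63% of all compared genes, and none at least 2-fold higher, the median was -0.54, and 29 of the 31 had a ratio below 0. The 8 were DTL, MCM10, GINS4, POLD3, ORC6, CHAF1A, CDC6 and ASF1B. The MCM2 to MCM7 helicase genes were nearer to the pool, from -0.74 for MCM4 to -0.11 for MCM7 on the log2 scale.

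Histone genes were lower in ENC 3 in sum, and single genes lay on both sides of the pool. The 71 genes with HIST names, a list made after the values were seen, summed to 266 CPM in ENC 3 (245 to 288). The pool had 962 CPM. HIST1H2AC, a gene for histone H2A, had the largest ratio of all compared genes. It stood at 22.3 CPM in ENC 3 (16.5 to 29.3, 50 UMIs) against 1.39, 2.84 and 2.896 in ENC 1, ENC 2 and ENC 4. The last 3 values lie below the 20 CPM limit, so HIST1H2AC was compared only through ENC 3 and is high there by selection. HIST1H4C, a gene for histone H4 and the most abundant histone transcript of its name group in the pool, stood at 121 CPM (107 to 136) against 729, 755 and 432. The linker histone genes HIST1H1B, HIST1H1C and HIST1H1D had 2.67, 17.8 and 25.8 CPM against 22.7, 58.7 and 72.4 in the pool. HIST1H2AC thus had its highest level in ENC 3, and HIST1H4C and the linker genes their lowest. Of the 71 genes only 6 were compared, 1 higher and 4 lower past 2-fold, beside 0.587% and 1.63% of all compared genes. The median log2 ratio of the 6 was -1.56, and the 1 higher gene, HIST1H2AC, entered by selection. Among HIST genes too low to be compared, and chosen after their values were seen, HIST1H2BD had 20 UMIs and 8.902 CPM in ENC 3 (5.44 to 13.7) against 1.48 in the pool. Most histone mRNAs of S phase end in a stem-loop without a poly(A) tail, and the library primes on poly(A), so these values count the histone RNA that this priming reaches. Histone genes are near-identical copies and reads among them may have been split.

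The remaining higher genes held many noncoding and antisense genes at low levels. CTA-29F11.1 stood at 73.4 CPM in ENC 3 (62.7 to 85.5) against 13.6, 17.8 and 18.1 in ENC 1, ENC 2 and ENC 4. ZNF436-AS1, THAP2, MINCR, LINC01481 and ZBED5-AS1 had between 25.4 and 55.2 CPM in ENC 3 and between 8.32 and 17.9 in the pool. These genes belong to no cell cycle list. HIST1H2AC, CTA-29F11.1, ZNF436-AS1 and THAP2 each had a log2 ratio of at least 1.51 over every other subcluster. Of the 21 higher genes matched to GENCODE v29, 5 are annotated as antisense (23.8%; ZNF436-AS1, MINCR, ZBED5-AS1, SNHG21 and THUMPD3-AS1). Among all 4390 matched compared genes 35 are (0.797%), a comparison chosen after the values were seen. In the pool CTA-29F11.1, ZNF436-AS1, THAP2, MINCR, LINC01481, ZBED5-AS1 and MTHFD2L lay below the CPM limit of the filter. They were therefore compared only through their ENC 3 level. Low genes that enter this way are high in ENC 3 by selection, so these shares cannot show an enrichment. Of the 35 antisense compared genes 21 had ratios above 0, with a median of 0.18, beside 0.04 for protein-coding compared genes. The genes that 4 of the higher genes are named after were not 2-fold higher. ZBED5 stood at 12.9 CPM against 21.3 in the pool, and THUMPD3 at 40.5 against 34.8. ZNF436 had 2.23 against 3.36 CPM and PAXIP1 5.79 against 7.92. Whether the counting used strand is not given in the sources used here, so reads of such pairs cannot be told apart for certain. The protein-coding genes in this group had mixed roles, among them MTHFD2L, a mitochondrial folate enzyme, with 42.7 against 18.2 CPM, CEP70, a centrosomal protein, with 53.9 against 25.98, and LGALS1, the secreted lectin galectin-1, with 72.1 against 34.5.

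Few ENC 3 cells were called in S phase. By the deposited calls, 49.4% of ENC 3 cells were in G1 (172 cells, exact Clopper-Pearson 95% interval 44.1 to 54.8), 8.62% in S (30 cells, 5.89 to 12.1) and 42.0% in G2M (146 cells, 36.7 to 47.3). The S share was 34.8% in ENC 1, 34.4% in ENC 2 and 25.1% in ENC 4, and the G2M share 27.5%, 35.0% and 18.2%. The S interval of ENC 3 lay below all 3, and its G2M interval above the shares of all 3, though it overlaps the interval of ENC 2 (32.2 to 37.8). The S and G2M scores had been regressed out before the study's clustering. The calls depended on the scoring: on the same gene lists scanpy placed 16.4% of ENC 3 cells in G1, 4.02% in S and 79.6% in G2M, whereas in ENC 1 the G2M share went from 27.5% to 38.2%. Of the 172 ENC 3 cells with a deposited G1 call, 112 (65.1%) became G2M, against 83 of 1131 in ENC 1 (7.34%), 55 of 346 in ENC 2 (15.9%) and 5 of 106 in ENC 4 (4.72%). The low S share held under both scorings, and the split between G1 and G2M did not.

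**Figure D3:**
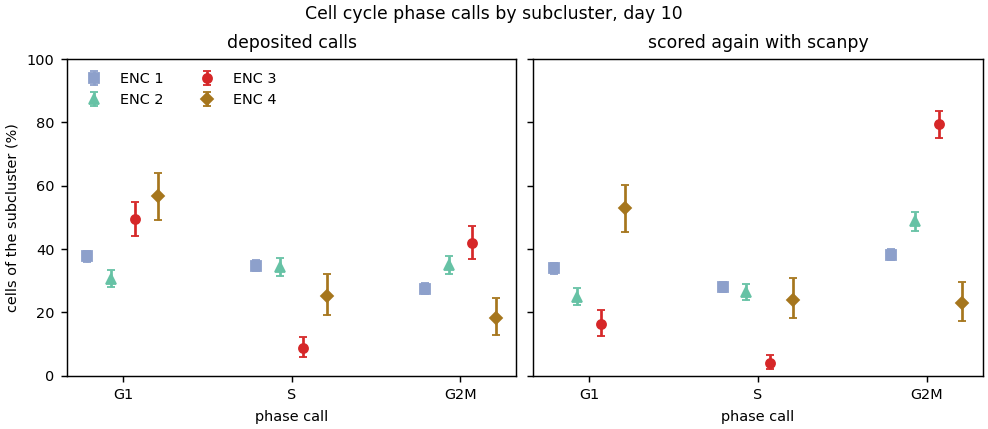
Share of the cells of each subcluster called G1, S or G2M (y axis, percent, bars for exact Clopper-Pearson 95% intervals) by the deposited calls on the left and by scanpy on the same gene lists on the right. ENC 3 has the lowest S share in both panels, 8.62% and 4.02%, and its G2M share moves from 42.0% to 79.6%.

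The lists behind those calls showed a compressed range in ENC 3. The 54 genes of the G2M list summed to 3545 CPM in ENC 3 cells called G1 (3435 to 3658), against 1761, 2107 and 1701 in G1 cells of ENC 1, ENC 2 and ENC 4. In cells called G2M they summed to 8457 CPM in ENC 3 (8270 to 8646), against 12149, 11230 and 11463. ENC 3 thus lay above the others among cells called G1 and below them among cells called G2M. Over all phases the sum was 5653 CPM in ENC 3 and 5925, 6072 and 4441 in the others. The S list summed to 2207 CPM in ENC 3 cells called S (2013 to 2414), against 2964 to 3264 in the others, and over all phases to 1342 against 1645 to 1954. Among cells called G1 it was higher in ENC 3, at 1049 CPM (989 to 1111) against 845, 940 and 770.2, with 19 of 31 compared genes above 0 and a median of 0.14. Over all phases 7 of 31 compared S list genes were at least 2-fold lower and none at least 2-fold higher, with a median of -0.63. Of 52 compared G2M list genes 9 were lower and 1, CDC20, was higher past 2-fold, 18 had ratios above 0 and 34 below, and the median was -0.26. The G2M list median was -0.00194 when each cell was thinned to 3000 UMIs and the filter was applied again. That left 2844 compared genes in place of 4429, so the 2 medians do not cover the same genes. The shares over all compared genes were 1.63% lower and 0.587% higher.

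**Figure D4:**
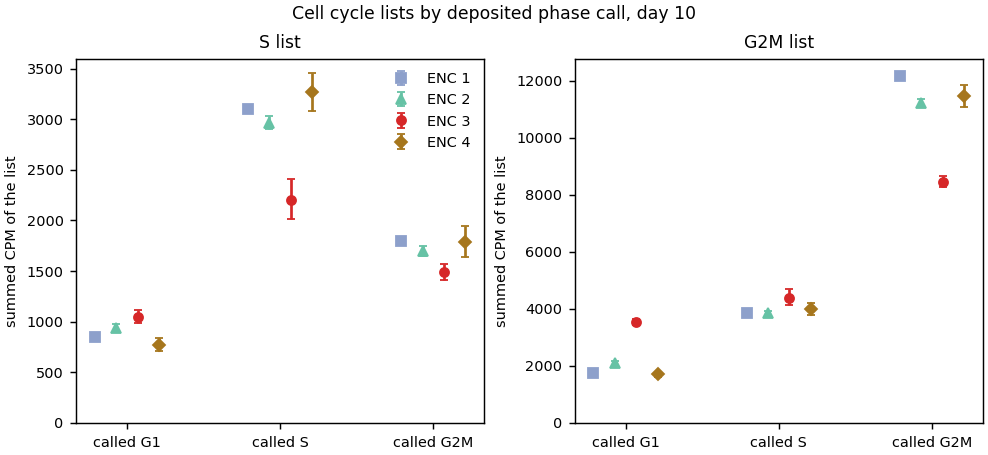
Summed CPM of the S list (42 genes in the table, left) and the G2M list (54 genes, right) in cells of each subcluster with a deposited G1, S or G2M call, with exact Poisson 95% intervals. In the right panel ENC 3 lies above the others among cells called G1, at 3545 CPM, and below them among cells called G2M, at 8457 CPM.

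Comparing cells of the same deposited call kept most directions, but the genes had been chosen on all these cells together. Among cells called G1, 85 of the 4429 genes (1.92%) were at least 2-fold higher and 57 (1.29%) at least 2-fold lower in ENC 3. Among cells called G2M, 32 (0.723%) were higher and 123 (2.78%) lower. Among cells called S, of which ENC 3 has 30, 131 (2.96%) were higher and 364 (8.22%) lower. All 26 higher genes had ratios above 0 among G1 cells and among G2M cells, and 25 did among S cells, the exception being PAXIP1-AS1. All 72 lower genes had ratios below 0 among G2M cells and S cells, and 61 did among G1 cells. Of the 26 higher genes, 18, 20 and 18 were past 2-fold in G1, S and G2M cells. Of the 72 lower genes, 29, 50 and 60 were. The median log2 ratio was 1.16, 1.30 and 1.30 for the higher genes and -0.85, -1.33 and -1.40 for the lower genes in G1, S and G2M cells.

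Mitotic genes parted by phase. Among cells called G1, 21 of the 52 compared G2M list genes were at least 2-fold higher in ENC 3, beside 1.92% of all compared genes, and 2 were at least 2-fold lower. DLGAP5 had 48.9 CPM in ENC 3 cells called G1 and 5.56 in the pooled G1 cells, and the proliferation marker MKI67 102 and 15.4. BIRC5 had 319.8 and 68.2 CPM, HMGB2 596 and 99.9, and CDC20 92.4 and 13.9. None of these G2M list genes was past 2-fold among cells called G2M, where CDC20 stood at 261 CPM in ENC 3 and 156 in the pool. TOP2A and UBE2C lay on opposite sides of the pool in the 2 phases: on the log2 scale they were 1.15 and 1.43 among cells called G1 and -2.10 and -2.10 among cells called G2M. CDK1 was lower in both, with 1.81 against 7.32 CPM among G1 cells and 18.3 against 147 among G2M cells. HJURP had 4.32 CPM in ENC 3 cells called G2M and 71.6 in the pool. HIST1H2AC was higher in ENC 3 under each call, with 19.02, 27.8 and 24.8 CPM in ENC 3 cells called G1, S and G2M and 3.12, 1.41 and 1.02 in the pool. The phase was called from the list genes themselves, so these values are descriptions too.

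The shift in the higher and lower genes was not confined to a few ENC 3 cells. These genes were chosen by their sums over the same cells, so a difference in the per-cell sums was fixed in advance. With each cell thinned to 3000 UMIs, which left out no cell of the 4 subclusters, the 26 higher genes summed to a median of 5 UMIs in ENC 3 (quartiles 3 and 7) and of 2 in each of the others. Of the ENC 3 cells, 61.5% reached 5 UMIs, as did 9.43% of ENC 1, 13.2% of ENC 2 and 10.2% of ENC 4 cells. The 72 lower genes summed to a median of 3 UMIs in ENC 3 (quartiles 2 and 5) and of 10, 14 and 6 in ENC 1, ENC 2 and ENC 4. Without CDC20 and PTTG1 the higher genes still had a median of 3 UMIs in ENC 3 and of 1 in each of the others. The distributions of single cells overlapped for both sums. The S list, which was not chosen by these values, had a median of 4 UMIs per cell in ENC 3 and ENC 4. In ENC 1 and ENC 2 its median was 5. The G2M list had a median of 16 UMIs per cell in ENC 3 (5th to 95th percentile 5 to 34), beside 9 in ENC 1 (2 to 50), 12 in ENC 2 (3 to 50) and 7 in ENC 4 (1.3 to 45.7). The lowest ENC 3 cell had 3 where each other subcluster reached 0, and the highest had 46 where the others reached 67 to 77.

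**Figure D5:**
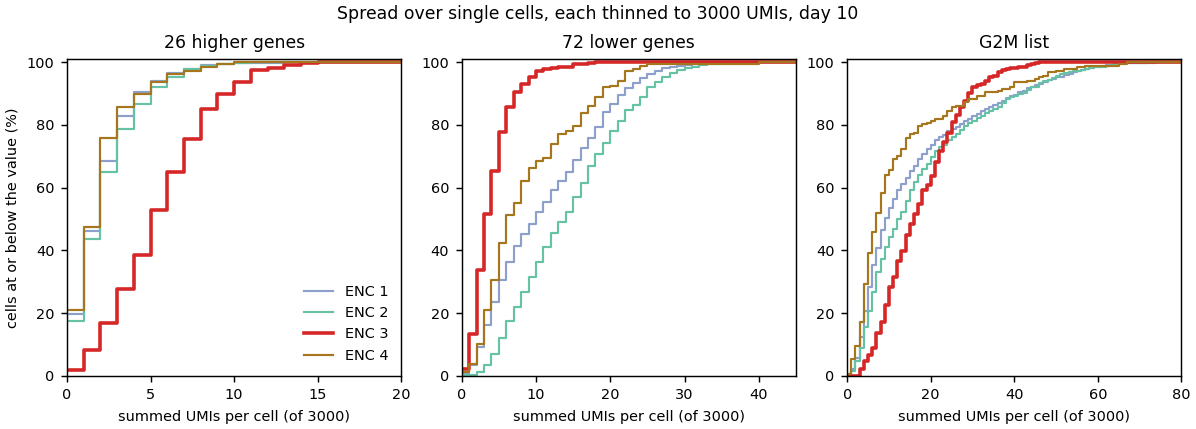
Cumulative share of cells (y axis, percent) against UMIs summed per cell (x axis) over the 26 higher genes, the 72 lower genes and the G2M list, with each cell thinned to 3000 UMIs. ENC 3 is shifted to the right for the higher genes (median 5 against 2), to the left for the lower genes (median 3 against 6 to 14), and rises more steeply for the G2M list.

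Shares of cells placed ENC 3 on the same side of the other subclusters as the levels did for CDC20, PTTG1, HIST1H2AC and CDK1. These genes were named for their levels, and the shares come from the same UMIs, so they are no separate evidence. After thinning, 35.3% of ENC 3 cells held a CDC20 UMI (30.3 to 40.6), against 13.5% in ENC 1, 13.5% in ENC 2, 10.7% in ENC 4 and 7.23% in NEP. PTTG1 was seen in 73.9% (68.9 to 78.4) against 36.7%, 42.7% and 32.6%, with 29.4% in NEP. HIST1H2AC was seen in 8.62% (5.89 to 12.1) against 0.50%, 0.974% and 1.07%, with 2.17% in NEP. CDK1 was seen in 3.16% (1.59 to 5.59) against 15.2%, 14.9% and 12.8%, with 8.62% in NEP. For CDC20, PTTG1 and HIST1H2AC the interval of ENC 3 lay above every other share, and for CDK1 below. Of the NEP cells 14.2% were called G2M, so they are no class that lacks these genes, and the part of free RNA in the shares was not tested.

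Most other gene lists lay close to the pool. Of 14 compared neural crest factors, SOX5, a partner of SOX10, was the only one past 2-fold, with 9.35 CPM (5.79 to 14.3) against 22.8, 23.2 and 15.9, and the list median was -0.07. The median over 11 Schwann precursor and glial genes was -0.23. The adhesion molecule NCAM1 had 8.902 against 22.8 CPM, and the ephrin EFNA5 21.8 against 44.7. SOX11 passed the limit against the pool with 46.3 against 95.3 CPM, but ENC 1 had 61.2 and ENC 2 195. Of 19 heat shock and unfolded protein genes none passed 2-fold, 16 had ratios above 0 and the median was 0.33, led by the chaperone HSP90AA1 with 1346 against 857 CPM. Of 15 contractile and cytoskeletal genes 12 had ratios above 0 and the median was 0.27, with 2153 against 1593 CPM for the actin-binding TMSB10. Ribosome biogenesis had a median of 0.17 over 19 genes and cholesterol synthesis -0.21 over 15, and no member of either passed 2-fold. The same median over all compared genes was 0.05.

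MALAT1 and NEAT1 were lower, and they come from a list of chromatin and nuclear RNA genes in which 5 of 13 compared had ratios above 0 and 8 below. MALAT1, a long noncoding RNA kept in the nucleus and the most abundant transcript of its list, stood at 8294 CPM in ENC 3 (8175 to 8414) against 16229, 16423 and 16796 in ENC 1, ENC 2 and ENC 4, a log2 ratio of -0.97 just inside the limit. NEAT1, which scaffolds nuclear paraspeckles, stood at 94.8 CPM (82.5 to 108) against 239.7, 274 and 211. The ENC 3 intervals of both lay below the levels of all 3 other subclusters. In the same list the chromatin proteins HMGN2, HMGB1 and the histone variant H2AFZ were at 770.0, 1366 and 1346 CPM against 519, 972 and 980.3. Ratios were -1.09 and -0.85 for MALAT1 and -1.10 and -1.76 for NEAT1 among cells called G1 and G2M.

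By the number of genes past 2-fold ENC 3 was nearest to ENC 1 and furthest from ENC 4. Against ENC 1, 26 of 4412 compared genes (0.589%) were higher and 64 (1.45%) lower in ENC 3. Against ENC 2, 25 of 4517 (0.553%) were higher and 147 (3.25%) lower, and against ENC 4, 91 of 4538 (2.01%) were higher and 159 (3.5%) lower. ENC 4 is the smallest group, so its low genes are the least certain. ENC 1 held 22961396 UMIs, ENC 2 8109026 and ENC 4 1381351, so the order also follows group size. Whether group size set the order was not tested. The 5 genes furthest below every other subcluster were HJURP, XRCC2, CDK1, DTL and CDCA4, each at most -2.02 on the log2 scale against any of the 3.

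Outside ENC 3 most of the higher genes were at lower levels, with exceptions. ZNF436-AS1 stood at 64.4 CPM in NEP against 55.2 in ENC 3 and was seen in 18.7% of NEP and 14.9% of ENC 3 cells after thinning. CEP70 stood at 54.7 CPM in NEP against 53.9. HIST1H2AC had 6.62 CPM in NEP, 3.59 in cranial placode and 4.33 in non-neural ectoderm cells at day 10, and CDC20 had 34.9, 33.1 and 57.96. The summed higher genes reached 5 UMIs in 12.1% of NEP cells, 9.91% of placode cells and 13.6% of non-neural ectoderm cells. In the day 15 library, scaled on its own and named by its own subclusters ENC 1′ to ENC 4′, HIST1H2AC lay between 0.732 and 1.42 CPM and CDC20 between 46.0 and 58.6. LGALS1 lay between 78.5 and 158 CPM and SMIM4 between 50.1 and 71.6, above their day 10 ENC 3 levels of 72.1 and 30.7. Of the 26 higher genes, 3 had their highest day 15 level in ENC 1′, 12 in ENC 2′, 4 in ENC 3′ and 7 in ENC 4′. The highest levels were thus spread over all 4 day 15 subclusters. With 1 library per stage, stage and library cannot be told apart.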

How the data were processed

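Single cells of the day 10 culture and the day 15 crestospheres were sequenced, each stage as 1 library. The authors deposited whole-number UMI counts per gene and cell, from kallisto and bustools according to the methods, and a cell table with the percent of mitochondrial and ribosomal UMIs, the S and G2M scores, the phase and the subtype of each cell. The submitters' processing notes name GRCh38, Cell Ranger and Seurat 4.0.4. The authors regressed depth, mitochondrial and ribosomal content and both phase scores out before clustering. The repeat that each cell came from is not analysed here.

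Counts were summed over the cells of each group and scaled to 1000000 (CPM), with exact Poisson 95% intervals. Genes other than mitochondrial ones and those for ribosomal proteins were compared from 20 CPM and a UMI in 10% of cells upward, as log2 ratios with a pseudocount of 1 CPM and a limit of 2-fold. Shares of cells used 3000 UMIs per cell (seed 1) with Clopper-Pearson intervals. No doublet caller was run. The steps were tested on simulated data. Genes were named as the 15 with the largest and the 15 with the smallest ratio, the 5 at each end by the ratio over every other subcluster, a fixed set of key class markers, and up to 4 members of each list with the largest absolute ratio; others were named after their values were seen. Members and lists were chosen with earlier results of these data known, and 5 cell cycle lists and the histone list after the values were seen. Python 3.11.15, numpy 2.4.6, scipy 1.17.1, pandas 2.3.3, scanpy 1.11.5 and, for rebuilt clusters, R 4.3.3 with Seurat 5.3.0 were used. Alternatives were another pseudocount, filter, depth, comparison group, phase and clustering. A few genes that the naming rule covers are not reported here.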

Additional observations from a re-analysis of the deposited data

Results flagged for a closer look

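Cells that the quality filters had removed held some that resembled ENC 3, a signal in cells no comparison above uses. Of the 2332 removed day 10 cells, 48 (2.06%, exact Clopper-Pearson 95% interval 1.52 to 2.72) were nearest to the ENC 3 profile. The same assignment placed 239 of the 348 ENC 3 cells (68.7%) in ENC 3 and also 82 of the 6947 other kept cells (1.18%), so a part of the 48 may be misassigned. The 48 cells had a median of 3245.5 UMIs and 4.06% mitochondrial UMIs, and 40 were under the limit on genes and 18 over the limit on mitochondrial UMIs. They carried 107 CPM of SOX10, 485 CPM of PTTG1, 100.6 CPM of CDC20 and 88.8 CPM of HIST1H4C, against 242, 48.7 and 513 CPM of the last 3 in the other removed cells. Genes of the profile chose these cells, so their levels are no separate evidence, and HIST1H2AC had 1 UMI.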

How the results depend on the processing

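With 1 library per stage the values rest on 348 cells and counting error alone, low genes are the least certain, and no difference has a replicate check. No paired analysis was possible because each stage is 1 library and no result comes from a test. The count of 26 higher genes became 16 with a pseudocount of 5, 8 with a filter of 50 CPM, 226 with no filter, 70 among cells called G1 with the filter applied to those cells and 48 among cells called G2M, an alternative chosen after seeing the data. The count of 72 lower genes became 17 with the filter of 50 CPM, 488 with no filter, 242 against all other kept cells, 36 in cells thinned to 3000 UMIs, 47 among G1 cells and 148 among G2M cells. Genes past 2-fold against each subcluster went from 18 higher to 11 (pseudocount 5), 7 (50 CPM), 132 (no filter) and 39 (G1), and from 31 lower to 8 (50 CPM), 220 (no filter), 16 (thinned), 17 (G1) and 93 (G2M). The S list median of -0.63 became -0.46 against all other kept cells, 0.20 among G1 cells and -0.31 among G2M cells, and the G2M list median of -0.26 became -0.00194 after thinning and 0.95 among G1 cells. For these medians, as for the thinned, G1 and G2M counts, the filter was applied again, so the genes covered differ. Over the list genes compared in all phases, the medians among G1 cells were 0.14 for the S list and 0.72 for the G2M list. The causes were not tested. Shares at 5000 UMIs, at 2 or more UMIs and without thinning were 45.7%, 6.32% and 53.4% for SOX10 and 49.7%, 11.5% and 57.2% for CDC20; at 2 or more UMIs and without thinning they were 0.862% and 12.9% for HIST1H2AC and 0% and 6.32% for CDK1. Scoring the phases again gave 16.4% G1, 4.02% S and 79.6% G2M. The ratios of all 26 higher and 72 lower genes kept their sign under every alternative but 1, G1 cells only, where 61 of the 72 did. A pseudocount or a filter cannot change a sign. The other alternatives reuse mostly the cells by which these genes were chosen, so the kept signs are no separate evidence. Clusters rebuilt with Seurat put 330 of the 348 cells in 1 cluster of 348, with 22 higher and 69 lower genes, of which 20 and 66 are among the genes above.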
